A study of Mus musculus with 6 samples.

Results

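Cyr61 (Ccn1), Ctgf (Ccn2), Nov (Ccn3) and Wisp1 (Ccn4) encode secreted proteins of the CCN family, and 6 further genes belong to the YAP-TEAD pathway: the targets Ankrd1 and Amotl2, the coactivators Yap1 and Wwtr1 (TAZ), the DNA-binding partner Tead1 and the kinase Lats2. These 10 genes were listed by name at a time when Cyr61 was known to be lower in these libraries, so its p-value is no independent evidence. All 10 were present among the 22880 genes of the deposited table and all 10 were among the 12014 genes that passed the filter on low counts. RNA was sequenced from MC-38GFP cells, a colon adenocarcinoma line of the mouse that expresses green fluorescent protein (GFP), after the cells had formed tumors in the cecum wall of C57BL/6 J mice and had been sorted as living GFP-positive cells that lacked CD45, a marker of leukocytes, and CD31, a marker of endothelium. The paper names the lentiviral vector pLKO.1-puro for its TRAF6 knockdown and refers to earlier work for the making of the HIF-1α-KD cells. The 3 Mock libraries were the control group, and in the 3 HIF-1α-KD libraries the transcript of the hypoxia-inducible factor HIF-1α had been knocked down stably. The age of the mice, the number of clones behind each cell line and the number of tumors behind each library are not given in the sources used here.

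YAP and TAZ are transcriptional coactivators that have no DNA-binding domain of their own and act through the TEAD proteins. The kinases of the Hippo pathway, LATS1 and LATS2, phosphorylate YAP and TAZ and thereby keep them in the cytoplasm, whereas stiff matrix, cell spreading and several growth factor receptors release them to the nucleus. CYR61, CTGF, ANKRD1 and AMOTL2 are standard transcripts by which this activity is read, and CYR61 is also an immediate early gene and a matricellular protein that binds integrins and promotes angiogenesis. The comparison asked whether Cyr61 moved together with other YAP targets when HIF-1α was lowered in the tumor cells.

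The letters that a TEAD protein recognizes were searched in the window from 250 bases before to 50 bases after the RefSeq start site (assembly GRCm38.p6), as GGAATG or its reverse complement CATTCC. RefSeq promoters were at hand for 6 of the 10 genes (Cyr61, Ankrd1, Amotl2, Yap1, Wwtr1 and Lats2). Those of Ctgf, Nov, Wisp1 and Tead1 were missing from the promoters at hand and were not searched. Several of the genes were also chosen as known YAP-TEAD targets, so the count of matches is a description and not a test. All 6 genes had at least 1 match, in 7 of their 8 promoters and at 7 distinct sites, since the overlapping windows of 2 Wwtr1 start sites held the same one, where 14.7% of 32851 promoters and 16.6% of 27025 genes had one. The 250 bases before the start site of Cyr61 are shown because Cyr61 is the gene that the other targets are compared with. They lie on the minus strand at chr3:145649986-145650235, outside annotated exons, and the capitals mark the TEAD match, 103 bases before the start site.
Cyr61: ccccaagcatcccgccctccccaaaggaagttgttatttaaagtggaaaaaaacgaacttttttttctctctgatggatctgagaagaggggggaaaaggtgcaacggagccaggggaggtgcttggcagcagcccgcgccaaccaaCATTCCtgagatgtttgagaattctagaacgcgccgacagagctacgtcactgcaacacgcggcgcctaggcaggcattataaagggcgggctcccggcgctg

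The matches of the other genes are shown with 12 bases on each side so that their flanks can be set beside that of Cyr61, each on the strand of its gene and with the match in capitals. Ankrd1 had a pair of matches, 210 and 123 bases before its start site (minus strand, chr19:36120037-36120066 and chr19:36119950-36119979), where 1.36% of all promoters had 2 or more. The match of Amotl2 (plus strand, chr9:102717727-102717756) lay 65 bases before the start site, that of Yap1 (minus strand, chr9:8004720-8004749) 141 bases before it and that of Wwtr1 (minus strand, chr3:57576029-57576058) 136 or 170 bases before its start sites. In Lats2 the match (minus strand, chr14:57746102-57746131) began 4 bases after the start site. Those of Ankrd1, Amotl2 and Lats2 fell in an exon of the GENCODE annotation and those of Cyr61, Yap1 and Wwtr1 did not.
Ankrd1, first match: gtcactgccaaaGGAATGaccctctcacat
Ankrd1, second match: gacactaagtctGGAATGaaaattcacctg
Amotl2: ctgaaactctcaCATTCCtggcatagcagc
Yap1: cgggagtctgcaGGAATGtagcgacgcgca
Wwtr1: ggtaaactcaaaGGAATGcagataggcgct
Lats2: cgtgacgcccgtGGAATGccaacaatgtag

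The core letters of a hypoxia response element were searched on both strands of the same windows. ACGTG occurred in the promoters of Yap1 and Lats2, with 2 matches each, and GCGTG occurred once in those of Cyr61, Wwtr1 and Yap1, where 19.6% and 32.4% of all promoters held the respective letters. The AP-1 letters TGANTCA (7.81% of all promoters) and the CArG box, the serum response factor element (1.63%), occurred in none of these 8 promoters. Such matches describe letters in a window and not bound sites.

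Between 19845838 and 30809238 reads per library fell on genes. The values compared were normalized counts, which the authors obtained by dividing the count of a gene by one factor per library. Groups were compared with limma on log2(normalized count + 1), and a positive log2 fold change means a higher value in HIF-1α-KD cells. Hif1a itself reached 6914, 5424 and 4945 normalized counts in Mock, compared with 697.3, 3142 and 1928 after the knockdown, with no overlap of the groups (log2 fold change -1.82, standard error 0.46, limma adjusted p = 0.219). Of all genes tested, 46 were lower and 1 was higher at an adjusted p-value under 0.05, which is 0.383% and 0.00832%, or 0.391% in both directions, and 12.7% had an unadjusted p-value under 0.05 (846 higher and 683 lower). With libraries scaled by their total reads the split was 1084 higher and 524 lower.

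None of the 10 genes passed the adjusted threshold with limma, with adjusted p-values between 0.261 and 0.992, nor did any with the quasi-likelihood test of edgeR, whereas the Wald test of DESeq2 called 1 (Cyr61). At an unadjusted p-value under 0.05, where 7.04% of all genes were higher and 5.69% were lower, Nov and Wisp1 were higher and Cyr61, Ankrd1 and Amotl2 were lower. All 5 also differed by at least 1.5-fold, where 7.48% of all genes met both limits (4.02% higher and 3.46% lower). The groups did not overlap in 4 of the 10 genes, against 19.2% of all genes tested, with Cyr61 lower (8.75% of all genes) and Nov, Wisp1 and Tead1 higher (10.4%). The median log2 fold change of the 10 genes was -0.10 and that of all genes tested was 0.02. In bulk RNA of sorted cells, less RNA per cell and fewer cells that express a gene cannot be told apart. Nothing in the labels says that the libraries came from separate tumors, so the p-values measure the spread between these samples, which may be partly technical.

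**Figure D1:**
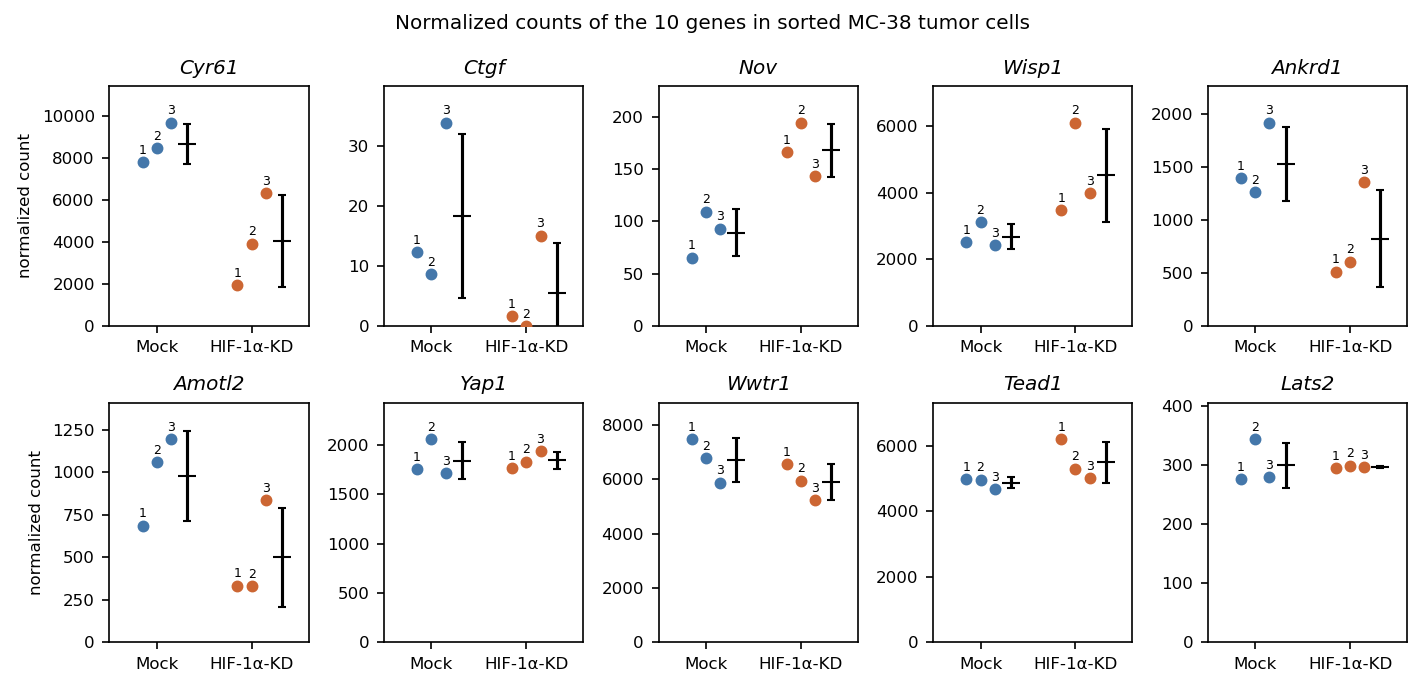
Normalized count (linear axis, from 0) of each of the 10 genes in the 3 Mock libraries (blue) and the 3 HIF-1α-KD libraries (orange), numbered by replicate, with the mean and the SD (n = 3) as a bar that is cut at 0 for Ctgf. The groups are separate for Cyr61, Nov, Wisp1 and Tead1, and HIF-1α-KD replicate 3 lies within the Mock range for Ankrd1, Amotl2 and Ctgf.

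Cyr61 (ENSMUSG00000028195, minus strand, chr3:145646976-145649981) was lower in every HIF-1α-KD library than in every Mock library. The Mock libraries held 7811, 8496 and 9701 normalized counts of Cyr61, compared with 1946, 3920 and 6335 in HIF-1α-KD replicates 1, 2 and 3. The Mock values lay close together, whereas the HIF-1α-KD values were spread over a wide range, lowest in replicate 1 and nearest to Mock in replicate 3. The Mock mean was 8669 ± 957 (SD, n = 3), and the HIF-1α-KD mean of 4067 ± 2198 (SD, n = 3) was 46.9% of it. On the log2 scale the difference was -1.24 (standard error 0.36, 95% confidence interval -2.07 to -0.42), a 2.37-fold lower level, with an unadjusted p of 0.00766 and an adjusted p of 0.261 by limma. The unadjusted p stayed under 0.05 with each library left out in turn (0.000352 to 0.0300). Without HIF-1α-KD replicate 1, the library with the lowest Hif1a, the log2 fold change was -0.79. HIF-1α-KD replicates 2 and 3 stood in opposite order, with 3142 and 1928 normalized counts of Hif1a against 3920 and 6335 of Cyr61. The Wald test of DESeq2 on the recovered reads called Cyr61 lower (log2 fold change -1.10, adjusted p = 0.0384), the only 1 of 15 alternatives that passed the threshold, over a range of adjusted p-values from 0.0384 to 0.522.

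Cyr61 was a strongly expressed gene in the Mock cells. By FPKM, which corrects for transcript length, it held ranks 719, 610 and 584 of all genes in the Mock libraries and ranks 3074, 1532 and 877 in the HIF-1α-KD libraries. As CPM (counts scaled to the total reads of the library), its level was 305, 354 and 380 in Mock, compared with 78.5, 165 and 267 in HIF-1α-KD cells.

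Ctgf (ENSMUSG00000019997, plus strand, chr10:24595442-24598683), the CCN gene most often read beside Cyr61 as a YAP target, was hardly expressed. It reached 12.31, 8.613 and 33.82 normalized counts in Mock, compared with 1.609, 0 and 15.02 in HIF-1α-KD libraries, from 10, 9 and 28 reads and 2, 0 and 13 reads. Mock replicate 3 and HIF-1α-KD replicate 3 were the highest of their groups, and the latter lay above 2 of the Mock libraries. The difference of -2.25 on the log2 scale (standard error 1.05) did not pass the threshold (limma adjusted p = 0.417), depended on the pseudocount (-3.49 with 0.1 and -0.88 with 10), and ran from -3.35 without HIF-1α-KD replicate 3 (limma unadjusted p = 0.00378, adjusted p = 0.198) to -1.35 without HIF-1α-KD replicate 2. No alternative brought Ctgf past the adjusted threshold (adjusted p-values from 0.198 to 0.704), and with so few reads the size of its difference is uncertain.

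Ankrd1 (ENSMUSG00000024803, minus strand, chr19:36111961-36120099) encodes a nuclear ankyrin repeat protein and is among the most responsive YAP targets. The Mock libraries held 1394, 1261 and 1917 normalized counts, compared with 511.5, 605.5 and 1353 in HIF-1α-KD replicates 1, 2 and 3. HIF-1α-KD replicates 1 and 2 lay well below Mock, whereas replicate 3 lay between Mock replicates 1 and 2, so the groups overlapped. The log2 fold change was -1.001 (standard error 0.35, 95% confidence interval -1.79 to -0.22, limma unadjusted p = 0.0182, adjusted p = 0.313). The unadjusted p rose above 0.05 without Mock replicate 3 (0.0719), without HIF-1α-KD replicate 1 (0.0530) and without HIF-1α-KD replicate 2 (0.0561).

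Amotl2 (ENSMUSG00000032531, plus strand, chr9:102716672-102733418) encodes a junctional scaffold that binds YAP and is itself a YAP target. Mock replicates 1, 2 and 3 gave 685.7, 1058 and 1195 normalized counts, and the corresponding HIF-1α-KD values were 333.8, 332.1 and 835.1. As with Ankrd1, HIF-1α-KD replicates 1 and 2 were low and replicate 3 lay within the Mock range. The log2 fold change was -1.07 (standard error 0.37, 95% confidence interval -1.92 to -0.23, limma unadjusted p = 0.0184, adjusted p = 0.315). The unadjusted p was 0.0617 without Mock replicate 2, 0.0703 without Mock replicate 3, 0.0509 without HIF-1α-KD replicate 1 and 0.0614 without HIF-1α-KD replicate 2.

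Nov and Wisp1 had their higher values in HIF-1α-KD cells. Nov (ENSMUSG00000037362, plus strand, chr15:54745702-54754039), whose product is the CCN protein best known for restraining proliferation, reached 65.25, 109.1 and 93.01 normalized counts in Mock, compared with 165.7, 194.2 and 143.2 in HIF-1α-KD libraries. Wisp1 (ENSMUSG00000005124, plus strand, chr15:66891320-66923201), first described as a WNT-induced gene, was measured at 2525, 3117 and 2418 normalized counts in Mock, compared with 3476, 6113 and 3998 in HIF-1α-KD libraries. In both genes each HIF-1α-KD library lay above each Mock library, and replicate 2 was the highest of its group in Mock as in HIF-1α-KD cells. The log2 fold change was 0.92 for Nov (standard error 0.28, limma unadjusted p = 0.00914, adjusted p = 0.275). For Wisp1 it was 0.72 (standard error 0.22, limma unadjusted p = 0.00983, adjusted p = 0.276) and was 0.48 without HIF-1α-KD replicate 2. The unadjusted p-values of both genes stayed under 0.05 with each library left out.

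The remaining CCN genes, which complete the family, were Wisp2 and Wisp3. Wisp2 reached 151.4, 144.5 and 36.24 normalized counts in Mock, compared with 19.3, 40.77 and 46.2 in HIF-1α-KD libraries, and Mock replicate 3 lay among the HIF-1α-KD values (log2 fold change -1.46, standard error 0.59, limma adjusted p = 0.376). Wisp3 had no reads in any library. Of the 5 CCN genes tested, 2 were higher and 2 were lower at an unadjusted p-value under 0.05 (12.7% of all genes), and none passed the adjusted threshold with limma or edgeR against 1 (Cyr61) with DESeq2. When single libraries were left out, 2 stayed higher and 1 to 3 were lower at the unadjusted threshold.

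Yap1, Wwtr1, Tead1 and Lats2 had log2 fold changes between -0.18 and 0.17. Yap1 (ENSMUSG00000053110, minus strand, chr9:7931999-8004596) gave 1752, 2058 and 1713 normalized counts in Mock, compared with 1761, 1829 and 1937 in HIF-1α-KD libraries. The groups overlapped throughout, with a log2 fold change of 0.0048 (95% confidence interval -0.31 to 0.32, limma adjusted p = 0.992) whose sign depended on the scaling. Wwtr1 (ENSMUSG00000027803, minus strand, chr3:57455649-57575910), the gene of TAZ, gave 7477, 6785 and 5875 normalized counts in Mock, compared with 6552, 5953 and 5228 in HIF-1α-KD libraries. Its groups overlapped as well, and the log2 fold change was -0.18 (95% confidence interval -0.53 to 0.16, limma adjusted p = 0.652).

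Tead1 (ENSMUSG00000055320, plus strand, chr7:112679318-112906807), the DNA-binding partner, gave 4991, 4976 and 4688 normalized counts in Mock, compared with 6212, 5305 and 5013 in HIF-1α-KD libraries. Each HIF-1α-KD library lay above each Mock library, replicate 3 by a narrow margin, and the log2 fold change was 0.17 (95% confidence interval -0.14 to 0.48, limma adjusted p = 0.641). It was 0.079 without HIF-1α-KD replicate 1. Lats2 (ENSMUSG00000021959, minus strand, chr14:57689662-57758388), a YAP target that restrains YAP in turn, gave 275.8, 343.6 and 279.0 normalized counts in Mock, compared with 294.4, 298.6 and 295.7 in HIF-1α-KD libraries. All 3 HIF-1α-KD values of Lats2 lay inside the Mock range (log2 fold change -0.01, 95% confidence interval -0.43 to 0.41, limma adjusted p = 0.990).

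Levels between genes were compared by FPKM. In Mock cells the order was Cyr61 (171 ± 19.0), Tead1 (79.0 ± 4.80), Wwtr1 (58.0 ± 7.19), Wisp1 (50.8 ± 9.10), Yap1 (35.9 ± 5.08), Ankrd1 (34.5 ± 7.11), Amotl2 (20.9 ± 5.79), Lats2 (5.97 ± 1.00), Nov (1.25 ± 0.35) and Ctgf (0.41 ± 0.30), as mean FPKM ± SD with n = 3. Among neighbours in that order, the libraries of Wwtr1 and Wisp1 overlapped and so did those of Yap1 and Ankrd1, whereas the other neighbours did not overlap. In HIF-1α-KD cells Cyr61 (84.2 ± 46.7) stood below Tead1 (92.4 ± 8.20) and Wisp1 (89.0 ± 28.7) by its mean, and its libraries overlapped with those of Tead1, Wisp1, Wwtr1 (53.0 ± 4.86) and Yap1 (37.3 ± 2.58). Ctgf was the lowest of the 10 genes in both groups, with a mean FPKM of 0.13 ± 0.20 (SD, n = 3) in HIF-1α-KD cells.

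**Figure D2:**
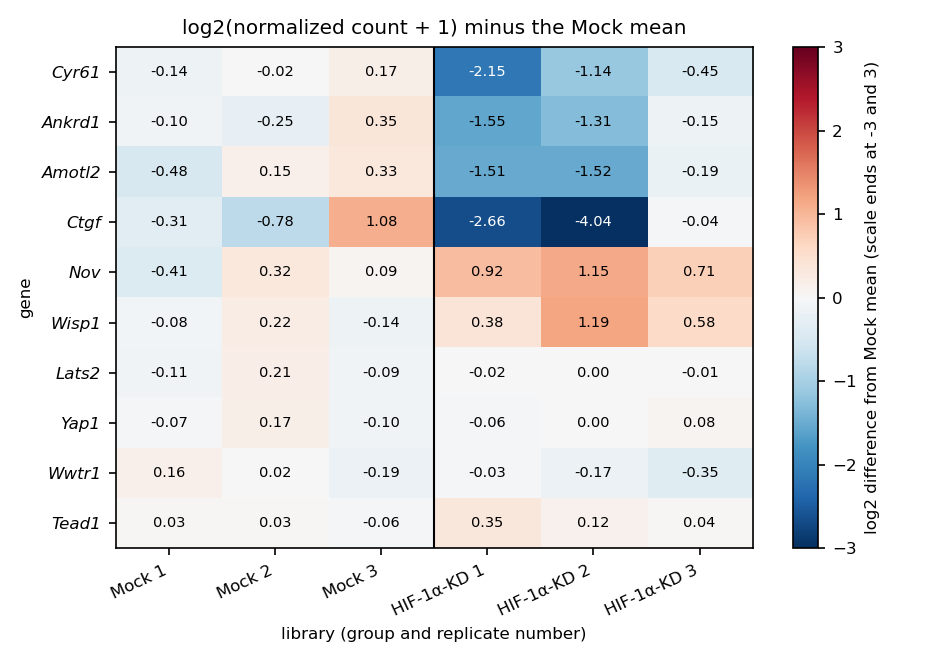
Log2(normalized count + 1) of each gene in each library minus the mean of the 3 Mock libraries, with the value printed in each cell and a color scale from -3 to 3. Cyr61, Ankrd1, Amotl2 and Ctgf share low values in HIF-1α-KD replicates 1 and 2 and small differences in replicate 3, and Lats2, Yap1, Wwtr1 and Tead1 stay near 0.

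Whether Cyr61 and another target differed between the groups by unequal amounts was tested on the log2 ratio of their normalized counts, each plus 1, within each library, where a common scaling factor cancels except for genes with few counts. The log2 ratio of Cyr61 to Ankrd1 had a mean of 2.53 ± 0.21 (SD, n = 3) for Mock against 2.28 ± 0.39 (SD, n = 3) for HIF-1α-KD cells, a difference of -0.24 (exact permutation test, two-sided, p = 0.4). The log2 ratio of Cyr61 to Amotl2 averaged 3.18 ± 0.29 (SD, n = 3) against 3.01 ± 0.51 (SD, n = 3), a difference of -0.17 (exact permutation p = 0.6). Leaving out single libraries gave differences from -0.45 to -0.066 for Ankrd1 and from -0.45 to 0.062 for Amotl2.

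The log2 ratio of Cyr61 to Lats2 was 4.82, 4.62 and 5.11 for Mock, compared with 2.72, 3.71 and 4.42 for HIF-1α-KD libraries, with no overlap and a difference of -1.24. The exact permutation p was 0.1, the smallest that 3 libraries against 3 allow, and 0.4 after adjustment over the 4 ratios. The ratio to Ctgf was too noisy to read, with a difference of 1.00 (exact permutation p = 0.5) that rested on few reads of Ctgf.

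Over the 6 libraries, Cyr61 was correlated with Ankrd1 and Amotl2 and inversely with Tead1, on log2(normalized count + 1). The permutation treated Mock and HIF-1α-KD libraries as exchangeable, so its p-values do not separate the group difference from variation between libraries. Pearson's r was 0.94 for Ankrd1 (exact permutation p = 0.00556, adjusted over 9 relations 0.025) and Spearman's rho was 0.83 (exact permutation p = 0.0583, adjusted 0.175). For Amotl2, r was 0.90 (exact permutation p = 0.0111, adjusted 0.0333) and rho was 0.89 (exact permutation p = 0.0333, adjusted 0.15). For Tead1, whose differences between libraries were small, r was -0.97 (exact permutation p = 0.00139, adjusted 0.0125) and rho was -1 (exact permutation p = 0.00278, adjusted 0.025).

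Without HIF-1α-KD replicates 1 and 2, the libraries farthest from the median of Cyr61, r over the remaining 4 was 0.63 for Ankrd1, 0.67 for Amotl2 and -0.79 for Tead1. The calls were lost (exact permutation p = 0.417, 0.333 and 0.292, each 0.797 after adjustment), in a test that 4 libraries leave little room to pass. As a description, the deviations of the libraries from their own group means correlated with those of Cyr61 at 0.87 for Ankrd1, 0.77 for Amotl2 and -0.98 for Tead1. The remaining relations did not pass the threshold, with r of 0.77 for Ctgf (exact permutation p adjusted 0.147), -0.71 for Nov (0.19), -0.52 for Wisp1 (0.469), 0.22 for Yap1 (0.871), 0.01 for Wwtr1 (0.974) and 0.04 for Lats2 (0.974).

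**Figure D3:**
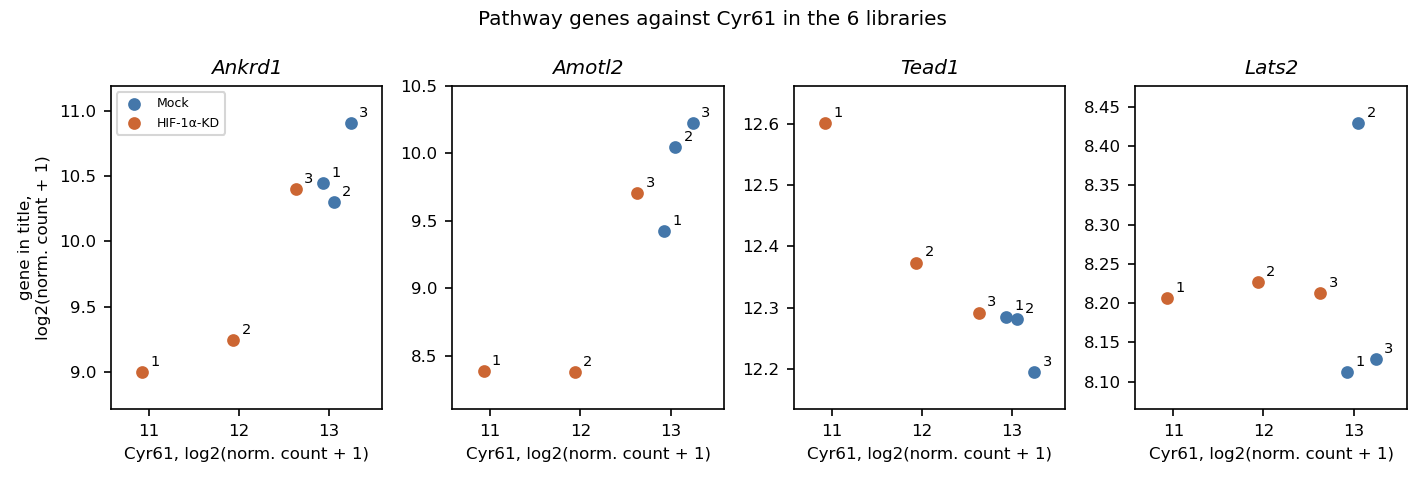
Log2(normalized count + 1) of Ankrd1, Amotl2, Tead1 and Lats2 (vertical axes, scaled to each gene) against that of Cyr61 (horizontal axis) in the 3 Mock libraries (blue) and the 3 HIF-1α-KD libraries (orange), numbered by replicate. HIF-1α-KD replicates 1 and 2 lie farthest from the other libraries on the Cyr61 axis, the vertical ranges for Tead1 and Lats2 are narrow, and r with Cyr61 was 0.04 for Lats2.

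Many genes followed Cyr61 over these libraries. Of the 12013 other genes tested, 1.32% had a Pearson's r above 0.9 with Cyr61, and Ankrd1 and Amotl2 held ranks 74 and 163. Genes of the other lists stood above or beside them, among them the immediate early genes Egr1 (r = 0.98, rank 11), Ier2 (0.95, rank 42), Jun (0.95, rank 45) and Zfp36 (0.94, rank 76) and the Hippo component Rassf1 (0.98, rank 12), so a high r with Cyr61 was not particular to YAP targets. The 5 genes most like Cyr61, at a mean normalized count of at least 100, were Dera (r = 0.996), Runx2 (0.991), Cryl1 (0.990), Ddah1 (0.986) and Pes1 (0.986). Ddah1, which encodes an enzyme that degrades an inhibitor of nitric oxide synthase, lies 108.7 kb from Cyr61 on chromosome 3 and gave 702.9, 810.6 and 924.1 normalized counts in Mock, compared with 352.3, 474.8 and 671.1 in HIF-1α-KD libraries. Runx2, a transcription factor of the osteoblast lineage, gave 986.1, 981.9 and 1086 in Mock, compared with 674, 793.8 and 919.5 in HIF-1α-KD libraries. These 5 genes were picked for their likeness over the same libraries, so their order of libraries is no separate result, and their limma adjusted p-values lay between 0.300 and 0.584.

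The wider set of conserved YAP targets held lower and higher genes. Of 22 listed genes 21 were tested, and at an unadjusted p-value under 0.05 (12.7% of all genes) 3 were higher and 6 were lower, with a median log2 fold change of -0.09 against 0.02 for all genes. The difference of these medians was -0.11 and ran from -0.23 to -0.034 with each library left out. The same fits gave 2 to 5 higher and 2 to 8 lower genes at the unadjusted threshold. Higher genes outnumbered lower ones without Mock replicate 2, HIF-1α-KD replicate 1 or HIF-1α-KD replicate 2. F3, the gene of tissue factor, which starts blood coagulation, was the only 1 of the 21 genes that passed the adjusted threshold, as 0.391% of all genes did. Its normalized counts fell from 2670, 2500 and 1549 in Mock to 420.7, 631.9 and 791.2 in HIF-1α-KD libraries, without overlap (log2 fold change -1.87, standard error 0.28, limma adjusted p = 0.0327). That call was lost, leaving 0 genes, without any 1 of the Mock libraries, without HIF-1α-KD replicate 2 or 3, and with total reads as the scale.

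Beside F3, Cyr61, Ankrd1 and Amotl2, the lower genes at the unadjusted threshold were Axl (log2 fold change -0.40), a receptor tyrosine kinase, and Crim1 (-0.60), a membrane protein that binds bone morphogenetic proteins. Axl was lower in each HIF-1α-KD library, with 18030, 18010 and 22190 normalized counts in Mock, compared with 13720, 15330 and 14950. The higher genes were Fjx1 (1.80), Ptpn14 (0.67) and Arhgef17 (0.79). Ptpn14 encodes a phosphatase that binds YAP, and its normalized counts of 262.2, 407.7 and 337.0 in Mock lay below 573.5, 525.2 and 479.4 in HIF-1α-KD libraries.

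The other tested genes of the set did not pass the unadjusted threshold. Their log2 fold changes were 0.50 for Tgfb2, 0.49 for Dock5, 0.33 for Asap1, 0.14 for Myof, 0.13 for Nt5e and 0.12 for Foxf2. Below 0 stood Lats2 and Ctgf, described above, and Nuak2 (-0.09), Rbms3 (-0.28), Gadd45a (-0.37) and Igfbp3 (-1.65). The value of Rbms3 came from HIF-1α-KD replicate 1 (17.69 normalized counts), since replicates 2 and 3 (218.2 and 474.7) lay above the Mock range of 131.1 to 173.9. Ccdc80 was too low to be tested.

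The Hippo pathway components stood on both sides of 0. Of 34 listed genes 31 were tested. Their median log2 fold change was 0.05, and 4 were higher and 4 lower at the unadjusted threshold, 25.8% of the list against 12.7% of all genes tested. Leaving out single libraries gave 2 to 6 higher and 2 to 5 lower genes, with 6 and 3 without Mock replicate 2 but 2 and 5 without Mock replicate 1. None passed the adjusted threshold with limma or edgeR, and 1 was higher with DESeq2. The genes with the largest test statistics were Wwc1 (log2 fold change -2.03) and Frmd6 (-0.53), upstream activators of the kinases, Amot (0.94), a scaffold that binds YAP, and Fat4 (3.02), an atypical cadherin. Amot gave 1067, 1518 and 1228 normalized counts in Mock, compared with 3778, 1981 and 1893 in HIF-1α-KD libraries, all above Mock, the opposite order to its relative Amotl2. Wwc1 and Fat4 were low throughout, with normalized counts of at most 72.48 and 32.17. The factors that share a role with the 10 genes overlapped between the groups, with log2 fold changes of 0.09 for Tead2, 0.14 for Tead3, 0.32 for Tead4 and 0.06 for Lats1.

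Sdc4, a heparan sulfate proteoglycan and a coreceptor of CCN proteins, was the only 1 of 8 tested CCN receptors (12.5%) that passed the adjusted threshold, where 0.391% of all genes did. It fell from normalized counts of 6778, 5891 and 7705 in Mock to 3662, 3336 and 3796 in HIF-1α-KD libraries (log2 fold change -0.91, standard error 0.15, limma adjusted p = 0.0447), a call that was lost, leaving 0 genes, without any 1 of the 6 libraries. The integrin subunit gene Itgb5 had a log2 fold change of 0.50 (limma unadjusted p = 0.0348), and Lrp6 (0.26) and Itga5 (0.27) did not pass the unadjusted threshold.

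Other programs that share genes with YAP were listed for comparison. Of 16 tested MRTF-SRF targets, the actin-linked genes that respond to the same mechanical cues, 3 were lower and none was higher at the unadjusted threshold (18.8% against 12.7% of all genes), with a median log2 fold change of -0.07. They were Fhl2 (log2 fold change -0.97), Actg1 (-0.41) and Tpm2 (-0.31), followed by Myl9 (-0.90), which did not pass it. The number of lower MRTF-SRF targets ran from 1 to 3 when single libraries were left out, and 1 was higher without Mock replicate 2. Of 17 tested immediate early genes, 14 were lower and none was higher (82.4% against 12.7% of all genes), with a median log2 fold change of -1.48. Single libraries moved the number of lower genes, from 9 without Mock replicate 2 to 17 without HIF-1α-KD replicate 3, and none was higher in any such fit. That list was known to be lower in these libraries when it was written and is no independent evidence of its direction. Ier3, an early response gene that modulates apoptosis, fell from 4406, 5029 and 4357 normalized counts in Mock to 690.1, 1433 and 1320 in HIF-1α-KD libraries and passed the adjusted threshold (log2 fold change -2.07, standard error 0.26, limma adjusted p = 0.0242). Ier2 (-1.45), Dusp1 (-2.51) and Klf2 (-1.64) followed. The count of immediate early genes past the adjusted threshold was 1, and it was 0 without any 1 of the Mock libraries or without HIF-1α-KD replicate 2 or 3 and 2 without HIF-1α-KD replicate 1.

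**Figure D4:**
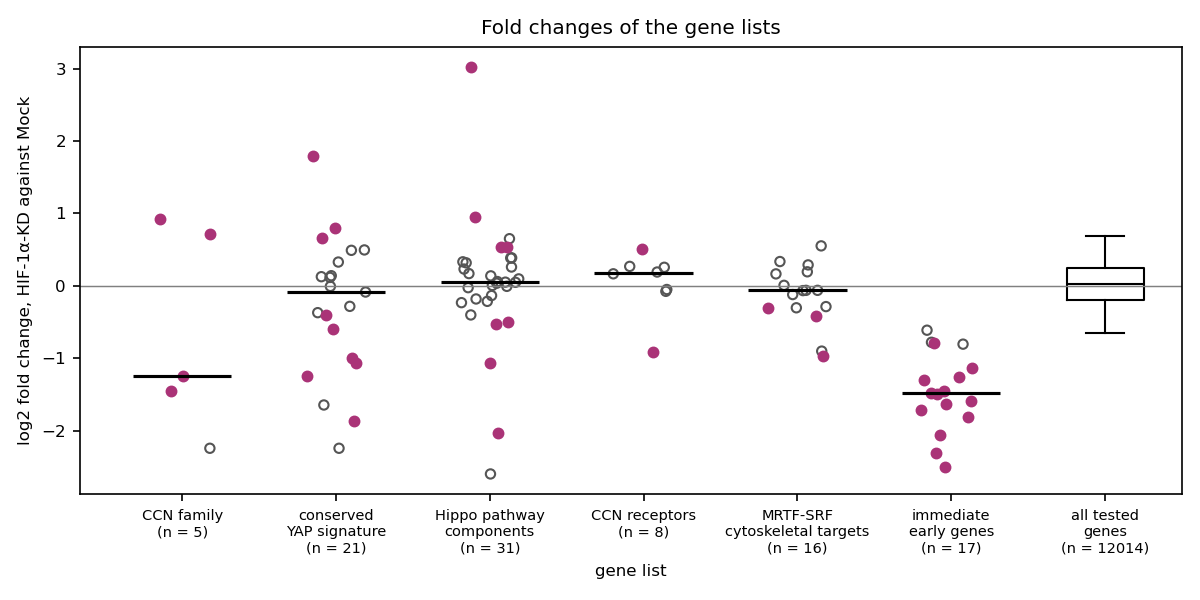
Log2 fold change of each tested gene in 6 lists (HIF-1α-KD against Mock), with genes at an unadjusted limma p-value under 0.05 as filled points, other genes as open circles and the median of the list as a line. The box on the right shows the quartiles and, as whiskers, the 5th and 95th percentiles of all 12014 genes tested, and the immediate early genes are the one list without a gene above 0.

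The libraries differed in markers of other cells, whose part in these results was not tested. Bulk RNA does not tell whether such transcripts came from other cells or from the MC-38 cells themselves. The 6 leukocyte markers summed to 24.5 to 27.0 FPKM in Mock libraries and to 12.1, 12.6 and 69.0 FPKM in HIF-1α-KD replicates 1, 2 and 3, so replicate 3, in which Cyr61, Ankrd1, Amotl2 and Ctgf lay nearest to Mock, was also the one with the highest leukocyte sum. Cd3e, the T cell marker among them, was at most 0.067 FPKM in any library. None of the 5 leukocyte markers tested passed an unadjusted p-value under 0.05. Without that library the log2 fold change was -1.64 for Cyr61, -1.43 for Ankrd1, -1.52 for Amotl2, 1.03 for Nov and 0.79 for Wisp1.

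The 5 fibroblast markers summed to 740 to 1985 FPKM in Mock and 2518 to 4792 FPKM in HIF-1α-KD libraries, and 1 of 5 (Col1a1) was higher at the unadjusted threshold, where 7.04% of all genes were. Col1a1 ran from 216 to 1471 FPKM in Mock and from 2147 to 4222 FPKM in HIF-1α-KD libraries, whereas Dcn, the other abundant gene of the sum, overlapped between the groups and had a log2 fold change of -0.38. The 6 smooth muscle and pericyte markers summed to 21.8 to 46.4 FPKM and 47.8 to 61.0 FPKM. At the unadjusted threshold 3 of 4 tested genes were higher (Pdgfrb, Rgs5 and Cspg4), where 7.04% of all genes were. None of them passed the adjusted threshold, and Pdgfrb overlapped between the groups. The defining contractile markers Myh11 and Cnn1 were at most 0.051 and 0.082 FPKM. The fibroblast sum and the smooth muscle and pericyte sum were highest in HIF-1α-KD replicate 1, in which Cyr61 was lowest. The 5 endothelial markers summed to 5.36 to 6.32 FPKM and 3.79 to 5.44 FPKM, with Kdr and Emcn at most 0.11 and 0.049 FPKM and 1 of 3 tested genes (Cdh5) lower at the unadjusted threshold, where 5.69% of all genes were. The 5 epithelial markers, which would mark carcinoma cells, summed to only 1.21 to 2.58 FPKM in 5 libraries and to 12.4 FPKM in Mock replicate 3, with Epcam at most 0.72 FPKM.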

How the data were processed

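RNA of sorted MC-38GFP tumor cells was compared between 3 Mock and 3 HIF-1α-KD libraries, grouped by the knockdown given in the labels. In the methods of the study the reads were trimmed, aligned with STAR, counted with featureCounts and tested with DESeq2. These methods name the human assembly GRCh38, whereas the labels name GRCm38, STAR and edgeR, and the gene identifiers are those of mouse. The authors deposited 1 table of 22880 genes, which was used whole. In it the authors deposited normalized counts, a signal made from the count of a gene divided by one factor per library and printed with 4 significant digits. The deposited FPKM values are scaled to the width column of each gene and to the reads on genes of each library. The authors also deposited a log2 ratio and p-values of their own comparison and the GC content of each gene as a fraction, none of which was used here.

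Reads were recovered by dividing out the factor of each library, and 100% of values up to 300 reads were whole within 0.1. Genes were filtered with filterByExpr of edgeR 4.0.16 (minimum count of 10), which kept 12014. Because the table held normalized counts, limma 3.58.1 with a mean-variance trend was fitted to log2(normalized count + 1), two-sided, with adjustment by the method of Benjamini and Hochberg over all genes tested. A fold change on this scale understates that of genes with few counts. Between same-group libraries the chi-square statistic of the counts was 30.6 to 97.6 per degree of freedom, so none was counted as a repeat. Depth was 19845838 to 30809238 reads on genes.

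The 10 genes and the lists were chosen with earlier results of these data known. Named were all 10 genes, every tested gene of the CCN family and of the conserved YAP set, the 4 genes with the largest absolute limma t of each other list, the 5 genes most like Cyr61, and Hif1a. The factors that share a role with the 10 genes (Tead2, Tead3, Tead4 and Lats1), Wisp3, Ccdc80, Egr1, Jun, Zfp36, Rassf1 and the marker genes were named in addition, after their values had been seen. Ratios and correlations were tested by exact permutation with scipy 1.17.1. Alternatives were edgeR and DESeq2 1.42.0 on the recovered reads, other scaling factors (TMM, median of ratios, total reads), pseudocounts of 0.1 and 10, no filter, the replicate number as a block, another threshold and each library left out. The scripts were tested on simulated data. Gene positions came from GENCODE (GRCm38) and promoters from RefSeq (GRCm38.p6). R 4.3.3, Python 3.11.15, pandas 2.3.3, numpy 2.4.6 and matplotlib 3.10.9 were used. Real-time PCR, protein arrays and human data were not analysed here.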

Additional observations from a re-analysis of the deposited data

How the results depend on the processing

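The log2 fold changes of Cyr61, Ctgf, Nov, Wisp1, Ankrd1, Amotl2, Wwtr1 and Tead1 kept their direction under all 15 alternatives run for each. With 3 libraries per group and HIF-1α-KD libraries that were spread widely, the calls depended on the test and on single libraries. Cyr61 alone crossed the adjusted threshold, with DESeq2 (log2 fold change -1.10, adjusted p = 0.0384), and its leave-one-out range was -1.64 to -0.79. The estimates for Yap1 and Lats2 lay so near 0 that their sign was not fixed. Yap1 was -0.021 with edgeR, -0.012 with DESeq2, -0.017 with TMM factors and -0.0083 with median-of-ratios factors, and -0.045 to 0.088 with each library left out. Lats2 was 0.048 with total reads and -0.064 to 0.094 with each library left out. For Ctgf and Wisp2, few reads limit what can be seen.

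Over all genes, edgeR called 0 higher genes, DESeq2 96 higher and 187 lower, and an unadjusted p-value under 0.05 with a fold change of at least 1.5 gave 483 and 416. With each library left out, 0 to 5 genes were higher and 0 to 32 lower. DESeq2 called 1 of the 10 genes lower, 1 of the CCN family lower, 2 of the conserved YAP set lower, 1 Hippo component higher, 1 MRTF-SRF target lower and 9 immediate early genes lower. The threshold on p and fold change gave 2 higher and 3 lower of the 10 genes, 2 and 2 of the CCN family, 3 and 5 of the conserved YAP set, 2 and 2 Hippo components, 1 lower MRTF-SRF target and 14 lower immediate early genes. F3 was no longer called with total reads, leaving 0 genes of the conserved YAP set, and Sdc4 was not called with total reads or with edgeR, leaving 0 CCN receptors. With each library left out the lower genes numbered 0 to 1 in the conserved YAP set, 0 to 2 among immediate early genes and 0 to 0 among CCN receptors. List medians minus that of all genes ran from -0.061 to 0.092 for Hippo components, -0.23 to -0.034 for the conserved YAP set, -0.28 to 0.098 for MRTF-SRF targets, -1.73 to -0.96 for immediate early genes and -0.0099 to 0.21 for CCN receptors. The cause of these shifts was not tested.

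The ratio of Cyr61 to Ctgf had a difference of -0.36 with a pseudocount of 10, and that to Amotl2 ran from -0.45 to 0.062 with each library left out (0.062 without HIF-1α-KD replicate 1). Without the 2 libraries farthest from the median of Cyr61, its r was 0.63 with Ankrd1, 0.67 with Amotl2, -0.79 with Tead1, -0.39 with Yap1 and -0.0089 with Lats2, and the calls for Ankrd1, Amotl2 and Tead1 were lost (exact permutation p adjusted 0.797 over 4 libraries).

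Libraries with the same replicate number did not deviate together (correlations of -0.14, -0.12 and 0.02 over genes), so the numbers were not taken as pairs. With the replicate block 0 genes were higher and 0 lower over all genes at the adjusted threshold, and 0 in the conserved YAP set, among immediate early genes and among CCN receptors. The blocked log2 fold changes were those without the block, with limma adjusted p-values of 0.220 for Cyr61, 0.235 for Ankrd1, 0.265 for Amotl2 and 0.383 for Ctgf (unadjusted p = 0.0231).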
